A study of Macaca mulatta with 17 samples.

Results

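The matrix metalloproteases (MMPs), the ADAMTS proteases and the tissue inhibitors of metalloproteases (TIMPs) were examined in the fetal uterus of the rhesus macaque. Members were all genes that a non-control probe of the array described by an MMP, ADAMTS or TIMP symbol with a number. The rule found 49 probes of the 20217 on the array, for 45 of the 17190 distinct gene symbols named there: 23 MMPs, 18 ADAMTS proteases and 4 TIMPs. Each gene was represented by the brightest of these probes, and ADAMTS9, ADAMTS13, ADAMTS20 and MMP25 had a second one. Probes that gave ADAMTS7 and ADAMTS18 only by their full names were not members and are described apart from the counts.

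Each of the 17 arrays held RNA from one side of the uterus of 1 female fetus. Pregnant females ate fruit carrying 400 µg/kg of deuterated bisphenol A (BPA), a building block of polycarbonate plastics and epoxy resins with weak estrogenic activity, each day, while controls received the ethanol vehicle. The GD100 animals (5 control, 5 BPA) were treated from gestational day 50 and delivered by caesarean section on day 100. The GD165 animals (4 control, 3 BPA) were treated from day 100 and delivered vaginally at day 165 to 168, and stillborn fetuses were left out. Gestational age and the mode of delivery therefore changed together and cannot be told apart. Nothing in the sources separates the uterine layers, so each value is a sum over epithelium, stroma, muscle and vessels, in which fewer cells of a type and less RNA per cell cannot be told apart.

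MMPs are zinc-dependent enzymes, secreted or anchored in the membrane, that are made as inactive precursors and cleave collagens, laminins and other matrix proteins. ADAMTS proteases are secreted enzymes with thrombospondin repeats, several of which cut the large proteoglycans versican and aggrecan. TIMPs sit in the active site of MMPs and block them, and TIMP3 also blocks some ADAMTS proteases. In the adult uterus the families are known for the breakdown and repair of the endometrium over the menstrual cycle and for implantation.

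The level of a gene rests on 1 stretch of 60 bases, so the letters of the probes behind the main results are shown. All 49 member probes carried the description of a human record, and no pair among the 1176 pairs of them shared a run of more than 11 letters on the same strand. The probes for MMP10 and MMP1, whose levels moved together between animals, are shown over bases 1 to 30 with the longest run they share, of 6 letters, in capitals. That was also the median over all pairs of member probes.
MMP10: gCATGTGtcatgaagaatgtttctggaatt
MMP1: ctcaagaacaCATGTGcagtcactagtgtc

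The first 30 bases of the probes for 4 members that changed between GD100 and GD165 at both exposures follow, 1 MMP, 1 TIMP and 2 ADAMTS proteases. The motif AATAAA, the usual polyadenylation signal read on the probe's strand, was looked for because probes of this kind of array tend to lie near the 3′ end of a transcript. None of these probes held it. It was present in 5 of the 49 member probes (10.2%) and in 12.8% of all probes.
MMP11: gcagcactgctatcctccaaagccattgta
TIMP3: ctgtctagaaggaatgtatttgttgctaaa
ADAMTS4: tctaaattgaattctgctatttatatgatc
ADAMTS19: tgctctgactttcaagtgcctgggagatca

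MMP7 and TIMP1 were among the probes with the signal, shown in capitals over bases 1 to 30 and 28 to 57.
MMP7: gtagatgtcAATAAAtgttatgtacacaaa
TIMP1: tctagacaatgaAATAAAgagttaccaccc

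Levels are given on a log2 scale, after each array was set to the same 75th percentile of signal. A level says nothing about one gene against another, because probes bind with different strength, so only values of the same gene are compared. Between 83.8% and 89.0% of spots on an array were well above background. Of the 45 members, 31 were well above background on all 17 arrays and 9 on 10 or fewer. These 9 were MMP8, MMP10, MMP12, MMP13, MMP20, MMP21, MMP26, MMP27 and ADAMTS6. No member was saturated on any array. With groups this small, 2-fold changes were planted in 200 of 20217 probes of simulated data. They were found at an adjusted p of 0.01 in 55.5% of these probes between the control groups and in 46.5% between the GD165 groups. An adjusted p depends on how many probes change, so 55.5% need not hold for the control ages, where 2328 probes were called.

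Tissue labels and markers were compared first. Of 15 genes that mark the uterus and its Müllerian origin, 13 were well above background on every array of each group, and the list's mean level stayed between -0.13 and 0.31 around its average over all arrays. Skeletal muscle markers (14 genes) stood 3.99 above their average in GD165 control replicate 5 and 3.45 above it in GD165 BPA replicate 5. They stood at most 0.66 above it in any GD100 uterus. The GD165 controls had a lowest value of 0.29 and a median of 1.54, and the GD100 controls lay at or below -0.91. Leaving out the highest arrays therefore does not level these markers between the control ages. Squamous epithelium markers (14 genes) stood 2.75 above their average in GD165 control replicate 6 and at or below -0.02 in every GD100 uterus. Values without these 3 arrays are also given for some of the results.

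Between GD100 and GD165 in control animals, the question was how uterine expression changes over the last part of gestation. MMP11, MMP15 and the inhibitor TIMP3 rose, whereas ADAMTS4, ADAMTS9, ADAMTS19 and MMP16 fell. The largest of these changes was in MMP11, which was 6.49-fold higher at GD165, and the deepest fall was in ADAMTS19, which was 2.99-fold lower. The 7 members were called by limma at an adjusted p of 0.01, taken over all probes of the array. They were 15.6% of the 45 members, beside 11.5% of all probes (6.32% higher, 5.2% lower). The other 38 members did not pass. At an unadjusted limma p of 0.05, 18 of the 45 members and 33.1% of all probes passed.

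MMP11, or stromelysin-3, is a secreted protease made mainly by stromal cells and activated before it leaves the cell. Its levels were 13.84, 14.21, 14.27, 14.39 and 14.56 in the GD100 control uteri and 15.88, 17.13, 17.19 and 17.60 in the GD165 control uteri. The groups did not overlap, and the lowest GD165 value belonged to replicate 5, the array high in skeletal muscle markers. The log2 fold change was 2.70 ± 0.30 (SE; limma adjusted p = 3.22e-05). Within the 2 slides that held both groups, GD165 exceeded GD100 by 2.80 and 2.58.

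In the BPA-exposed animals, which share no array with the controls, MMP11 stood at 14.53, 14.54, 14.65, 14.84 and 15.03 at GD100 and at 16.61, 17.28 and 17.89 at GD165. Again no value overlapped, and the change was 2.54 ± 0.33 on the log2 scale, or 5.83-fold (limma adjusted p = 0.000174). On the single slide with both groups the difference was 3.06. Leaving out any 1 array kept the log2 change between 2.48 and 3.06 in controls and between 2.23 and 2.87 in BPA-exposed animals, with the adjusted p below the threshold throughout.

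**Figure D1:**
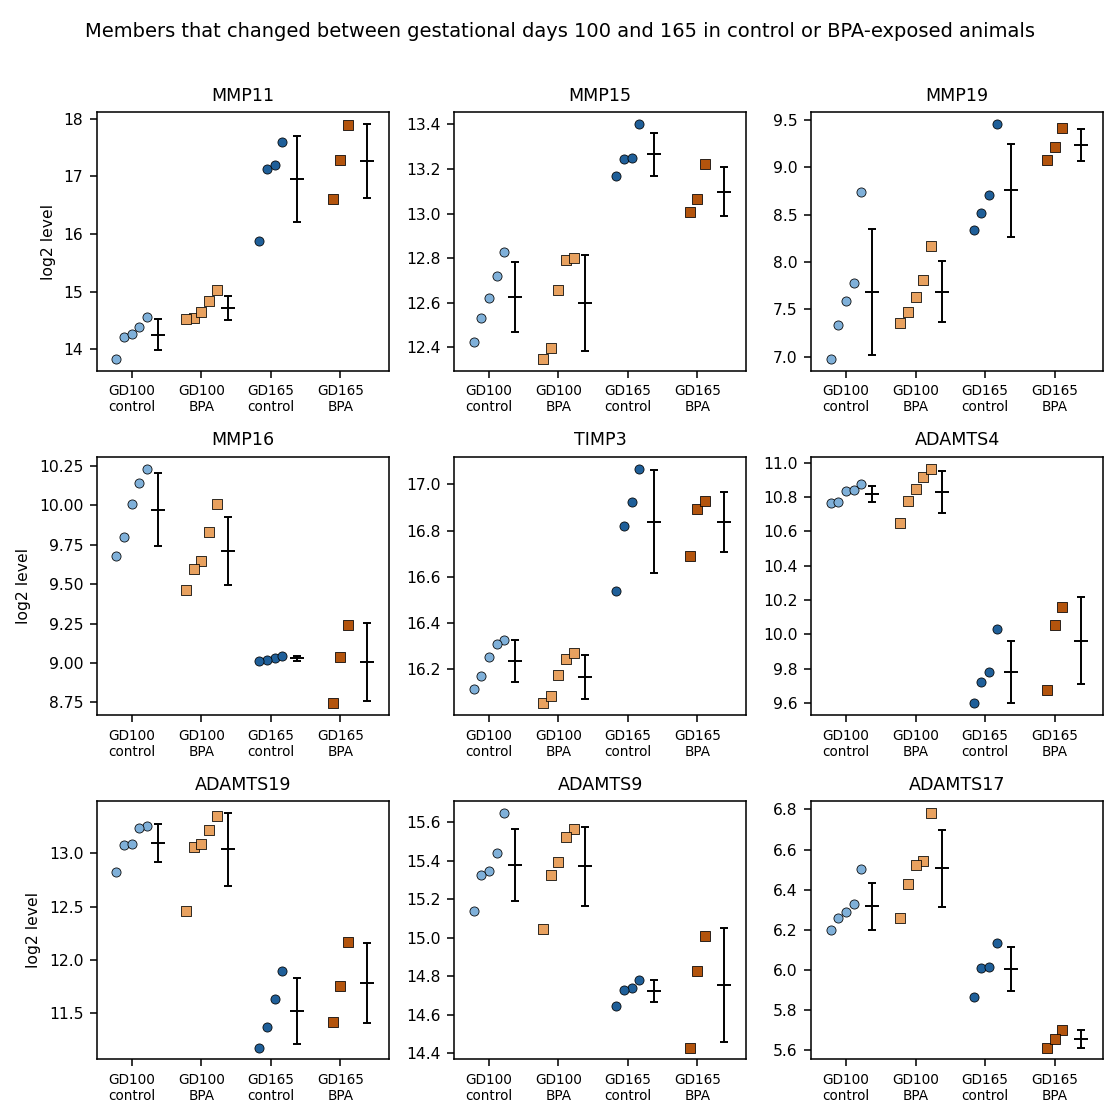
Levels of the 9 members that changed between GD100 and GD165 in control or BPA-exposed animals. Each point is 1 animal (log2 level on the vertical axis, points of a group spread out by level for visibility only), and the bar beside each group is the mean ± SD; MMP11 rose from 14.25 to 16.95 in controls and ADAMTS4 fell from 10.82 to 9.78, with no overlap between ages.

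TIMP3 is the TIMP that binds to the matrix, and it blocks ADAMTS4 and ADAMTS5 as well as MMPs. It stood at 16.11, 16.17, 16.25, 16.31 and 16.32 in GD100 controls and at 16.54, 16.82, 16.92 and 17.07 in GD165 controls, so that all the older uteri were higher. The log2 change was 0.60 ± 0.10 (limma adjusted p = 0.000619), and within slides it was 0.74 and 0.67. The BPA-exposed uteri held 16.05, 16.09, 16.18, 16.24 and 16.27 at GD100 and 16.69, 16.90 and 16.93 at GD165, a change of 0.67 ± 0.11 (limma adjusted p = 0.000754). TIMP3 was 1.52-fold higher at GD165 in controls and 1.59-fold higher in BPA-exposed animals, and the age effects differed by 0.07 (95% confidence interval -0.25 to 0.38).

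The other 3 inhibitors did not pass the test at either exposure. TIMP1, a secreted inhibitor, differed by 0.39 ± 0.17 in controls (limma adjusted p = 0.119) and by 0.38 ± 0.18 in BPA-exposed animals. Its levels were 15.53, 15.75, 15.77, 16.09 and 16.12 in GD100 controls and 15.95, 16.06, 16.34 and 16.60 in GD165 controls. They were 15.72, 15.77, 15.81, 16.0 and 16.12 in the GD100 BPA uteri and 15.89, 16.32 and 16.57 at GD165, so the ages overlapped at both exposures.

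TIMP2, which also helps to activate MMP2 at the cell surface, was the member with the narrowest range, 0.58 over all 17 arrays. It held 14.57, 14.79, 14.80, 14.81 and 14.90 in GD100 controls, 14.77, 14.78, 14.83, 14.85 and 14.87 in GD100 BPA uteri, 14.66, 14.72, 15.06 and 15.15 in GD165 controls and 14.84, 14.87 and 15.00 in GD165 BPA uteri. Its change with age was 0.12 in controls, with a 95% confidence interval from -0.09 to 0.34. TIMP4 held 7.76, 8.36, 8.47, 8.80 and 8.92 in GD100 controls and 8.09, 8.15, 8.59 and 9.85 in GD165 controls, and the highest value came from replicate 6. In BPA-exposed animals TIMP4 held 8.19, 8.27, 8.59, 8.69 and 9.10 at GD100 and 7.43, 7.94 and 8.83 at GD165. Its interval was wide, from -0.57 to 0.99 in controls and from -1.35 to 0.34 in BPA-exposed animals.

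Among the membrane-anchored MMPs, MMP15 rose while MMP16 fell in controls. Both enzymes can activate the precursor of MMP2. MMP15 stood at 12.42, 12.53, 12.62, 12.72 and 12.83 in GD100 controls and at 13.17, 13.24, 13.25 and 13.40 in GD165 controls, a rise of 0.64 ± 0.11 (limma adjusted p = 0.000949). In the BPA-exposed animals it held 12.35, 12.40, 12.66, 12.79 and 12.80 and then 13.01, 13.07 and 13.22. These groups did not overlap either, but the change of 0.50 ± 0.12 lay just outside the threshold (limma adjusted p = 0.01005). Without the 3 arrays high in muscle or squamous markers the control value was 0.70 (limma adjusted p = 0.0104).

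MMP16 stood at 9.68, 9.80, 10.01, 10.14 and 10.23 in GD100 controls and at 9.01, 9.02, 9.03 and 9.04 in GD165 controls. The 4 older uteri lay within a few hundredths of each other and below every younger one, and the fall was 0.95 on the log2 scale, or 1.93-fold (SE 0.13; limma adjusted p = 0.000198). In BPA-exposed animals MMP16 held 9.46, 9.6, 9.65, 9.83 and 10.01 at GD100 and 8.74, 9.04 and 9.24 at GD165, a change of -0.70 ± 0.15 (limma adjusted p = 0.00392). That limma call was lost without GD165 BPA replicate 4 (-0.57, adjusted p = 0.0294) or replicate 5 (-0.72, adjusted p = 0.0138), and without the 3 marker-high arrays (-0.72, adjusted p = 0.0212). Within slides the control difference was -1.12 and -0.77, and the BPA difference was -0.97.

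MMP14, the membrane enzyme best known for activating MMP2, did not pass at either exposure. It held 12.62, 12.75, 12.95, 13.12 and 13.13 in GD100 controls, 12.82, 12.90, 13.40 and 13.59 in GD165 controls, 12.90, 12.91, 13.04, 13.11 and 13.16 in GD100 BPA uteri and 12.74, 13.24 and 13.25 in GD165 BPA uteri. Its target MMP2, gelatinase A, held 14.54, 14.66, 14.71, 14.79 and 14.79 in GD100 controls and 14.79, 14.96, 15.31 and 15.44 in GD165 controls. The control difference of 0.42 ± 0.12 did not pass (limma adjusted p = 0.0164). It passed without GD165 control replicate 5 (0.54, limma adjusted p = 0.00277) and with another background correction (0.44, limma adjusted p = 0.00946). In BPA-exposed animals MMP2 held 14.63, 14.74, 14.77, 14.80 and 14.95 and then 15.16, 15.19 and 15.23, with no overlap and a difference of 0.42 ± 0.13 (limma adjusted p = 0.0299).

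Of the secreted ADAMTS proteases, ADAMTS4 had the smallest adjusted p of all members in controls. This enzyme, also called aggrecanase, cuts aggrecan and versican. Its levels were 10.77, 10.77, 10.84, 10.84 and 10.88 in GD100 controls and 9.6, 9.73, 9.78 and 10.03 in GD165 controls. The fall was 1.03 on the log2 scale, or 2.05-fold (SE 0.11; limma adjusted p = 1.86e-05), with -1.06 and -1.28 within slides. In BPA-exposed animals ADAMTS4 held 10.65, 10.78, 10.85, 10.91 and 10.97 at GD100 and 9.67, 10.06 and 10.16 at GD165, a change of -0.87 ± 0.12 (limma adjusted p = 0.000218). The younger uteri were all above the older ones at both exposures.

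ADAMTS19, whose substrates are poorly known, held 12.83, 13.08, 13.08, 13.24 and 13.26 in GD100 controls and 11.17, 11.37, 11.63 and 11.89 in GD165 controls. The fall of 1.58 on the log2 scale (SE 0.19; limma adjusted p = 6.27e-05) left a gap between the groups that was wider than either group's own range. In BPA-exposed animals ADAMTS19 held 12.46, 13.06, 13.09, 13.22 and 13.35 and then 11.42, 11.76 and 12.17, a change of -1.26 ± 0.21 (limma adjusted p = 0.000934). Within slides the control differences were -1.61 and -1.71 and the BPA difference was -1.60.

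ADAMTS9, another versican- and aggrecan-cutting enzyme, fell by 0.65 on the log2 scale in controls (SE 0.13; limma adjusted p = 0.00248). It held 15.14, 15.32, 15.35, 15.44 and 15.65 at GD100 and 14.65, 14.73, 14.74 and 14.78 at GD165. In BPA-exposed animals it held 15.04, 15.33, 15.40, 15.52 and 15.56 and then 14.43, 14.83 and 15.01, a change of -0.62 ± 0.14 (limma adjusted p = 0.00728). These calls were lost in more alternatives than those of any other member. The second, dimmer probe differed by -0.76 ± 0.30 in controls and -0.85 ± 0.33 in BPA-exposed animals, in the same direction but short of the threshold (limma adjusted p = 0.0919 and 0.0819), and the mean over both probes did not pass either (0.0213 and 0.0285). The BPA call was also lost without any one of GD100 BPA replicates 1, 3, 4 and 5, GD100 control replicate 2, and GD165 BPA replicates 4 and 5, with changes between -0.65 and -0.45 and an adjusted p of up to 0.0529. Both limma calls were lost without the 3 marker-high arrays, at -0.66 (adjusted p = 0.0302) in controls and -0.65 (adjusted p = 0.0282) in BPA-exposed animals.

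ADAMTS17 and MMP19 were called only in the BPA-exposed animals. ADAMTS17 held 6.26, 6.43, 6.52, 6.54 and 6.78 in GD100 BPA uteri and 5.61, 5.66 and 5.70 in GD165 BPA uteri, a fall of 0.85 on the log2 scale, or 1.80-fold (SE 0.11; limma adjusted p = 0.000153). In controls it held 6.20, 6.26, 6.29, 6.33 and 6.50 and then 5.86, 6.01, 6.02 and 6.13, also without overlap, with a difference of -0.31 ± 0.10 (limma adjusted p = 0.035). With quantile normalization the control difference passed as well (-0.45, limma adjusted p = 0.00408). The difference between these age effects was -0.54 ± 0.15, which did not pass over all probes (limma adjusted p = 0.5).

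MMP19, a protease of basement membrane proteins, held 7.35, 7.47, 7.63, 7.81 and 8.17 in GD100 BPA uteri and 9.08, 9.21 and 9.42 in GD165 BPA uteri. The rise was 1.55 ± 0.33 (limma adjusted p = 0.00434), but the call was lost without GD100 BPA replicate 1 (1.47, adjusted p = 0.0105) or 5 (1.5, adjusted p = 0.0103) or without GD165 BPA replicate 3 (1.57, adjusted p = 0.0151), 4 (1.63, adjusted p = 0.0141) or 5 (1.46, adjusted p = 0.0219). Without the 3 marker-high arrays it was also lost (1.46, limma adjusted p = 0.0233). In controls MMP19 held 6.98, 7.34, 7.59, 7.77 and 8.74 and then 8.34, 8.52, 8.71 and 9.46, with 1 overlapping GD100 animal, replicate 3. The control difference was 1.07 ± 0.30 (limma adjusted p = 0.0192), and without that animal it was 1.34 (adjusted p = 0.00179). Within slides the control differences were far apart, at -0.03 on the slide that held GD100 control replicate 3 and 2.12 on the other. The BPA difference within a slide was 1.95. The age effects at the 2 exposures differed by 0.48 ± 0.45 (limma adjusted p = 0.846).

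In the BPA-exposed animals 8 members were called (3 higher, 5 lower), or 17.8% of the members beside 9.68% of all probes (4.82% higher, 4.86% lower). At an unadjusted limma p of 0.05, 21 members and 34.5% of all probes passed. Of the 7 members called in controls, 6 were also called in BPA-exposed animals and all 7 had the same sign. Among all probes called in controls, 57.9% were also called in BPA-exposed animals and 98.8% had the same sign. The 2 comparisons use different animals but share the estimate of the spread and some slides.

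**Figure D2:**
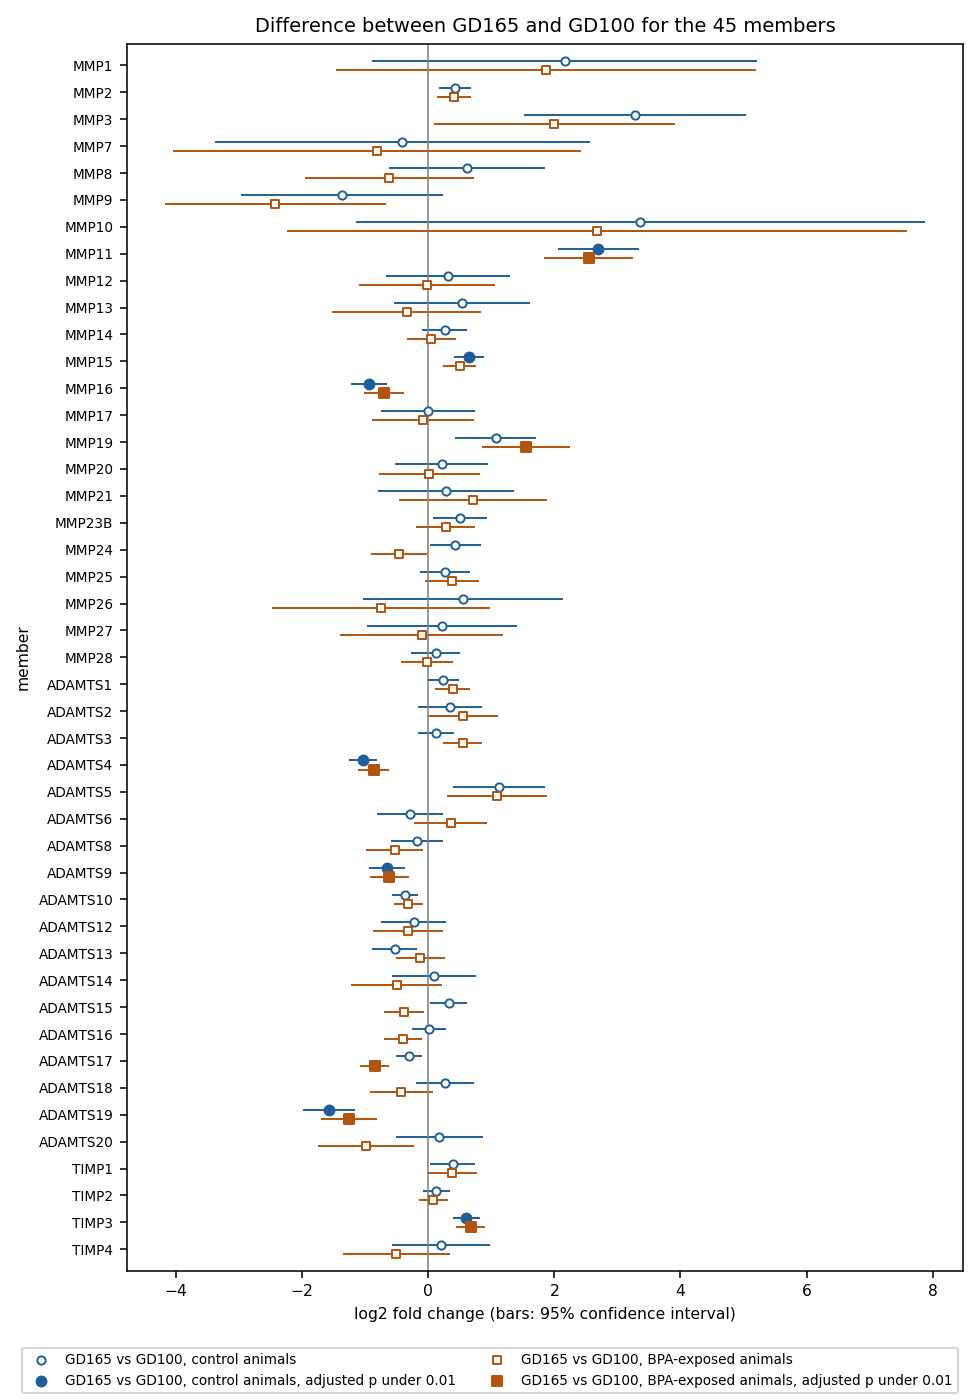
Difference between GD165 and GD100 for each of the 45 members, as log2 fold change on the horizontal axis with its 95% confidence interval, in control animals (circles) and BPA-exposed animals (squares). Filled symbols passed an adjusted p of 0.01: 7 members in controls and 8 in BPA-exposed animals, with MMP11 the farthest to the right of them at 2.70 and 2.54.

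By family, in controls 2 of 23 MMPs rose and 1 fell, 3 of 18 ADAMTS proteases fell and none rose, and 1 of 4 TIMPs rose. In BPA-exposed animals 2 MMPs rose, 1 fell, 4 ADAMTS proteases fell and 1 TIMP rose. The median log2 difference over the 45 members was 0.23 in controls, beside 0.0046 over all probes, and -0.08 in BPA-exposed animals, beside -0.05. In controls the groups did not overlap for 11 of 45 members, beside 19.4% of all probes, and in BPA-exposed animals for 19 of 45, beside 27.2%.

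ADAMTS1 and ADAMTS5, which sit side by side in the genome and both cut versican, did not pass. ADAMTS1 held 14.58, 14.60, 14.77, 14.79 and 14.88 in GD100 controls, 14.70, 14.88, 15.05 and 15.18 in GD165 controls, 14.24, 14.38, 14.56, 14.69 and 14.70 in GD100 BPA uteri and 14.73, 14.94 and 15.03 in GD165 BPA uteri. The last 2 groups did not overlap (difference 0.38 ± 0.13, limma adjusted p = 0.0508). ADAMTS5 differed by 1.12 ± 0.34 in controls (limma adjusted p = 0.0299) and 1.09 ± 0.38 in BPA-exposed animals (limma adjusted p = 0.0512). The probe described as ADAMTS7 by its full name ran from 13.96 to 14.51 in GD100 controls and from 13.01 to 13.20 in GD165 controls, and fell by 1.14 on the log2 scale (SE 0.13; limma adjusted p = 4.89e-05). In BPA-exposed animals it ran from 13.99 to 14.60 and then from 13.03 to 13.40, a change of -1.04 ± 0.15 (limma adjusted p = 0.000303).

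Cell type markers were compared between the same ages. In controls, beside 11.5% of all probes, 6 of 10 epithelial markers, 4 of 11 smooth muscle markers, 2 of 21 leukocyte markers, 2 of 12 endothelial markers and 5 of 14 skeletal muscle markers rose and none fell. Of the 15 uterus markers 3 rose (ESR1, PAX2 and PAX8) and 3 fell (HOXA10, AMHR2 and WNT5A). The mean level of the epithelial list, around its average, was -0.62 to 0.06 in GD100 controls and 0.44 to 0.66 in GD165 controls, and that of the smooth muscle list -0.45 to 0.10 and 0.08 to 0.64. In BPA-exposed animals the epithelial list went from between -0.54 and 0.00 to between -0.12 and 0.37. All 10 epithelial and all 11 smooth muscle markers were well above background on every control array. The part of these shifts in the changes of MMP11, MMP15, MMP16, TIMP3 and the ADAMTS proteases was not tested. Without the 3 arrays high in skeletal muscle or squamous markers, 6 members were called in controls (3 higher, 3 lower) and 5 in BPA-exposed animals (2 higher, 3 lower). MMP11 then changed by 2.91 and 2.23. Fewer of all probes were called in controls in that setting too, and no share over all probes is given for BPA-exposed animals. These counts are therefore not read as a result about the members.

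Other genes of the pathway were taken from lists of matrix enzymes, inhibitors, substrates and regulators. All counts from these lists stand beside 11.5% of all probes called in controls and 9.68% in BPA-exposed animals. No test of a list as a whole was run. Of 9 genes of plasminogen activation, which can set off MMP precursors, 2 rose in controls and none fell. These were SERPINB2, an inhibitor of plasminogen activators (2.30 ± 0.36, limma adjusted p = 0.000404), and SERPINF2, the main plasmin inhibitor (1.68 ± 0.32, limma adjusted p = 0.00185). The same 2 rose in BPA-exposed animals, by 2.11 and 1.77. None of 20 ADAM proteases, the membrane relatives of the ADAMTS family, passed at either exposure. Of 4 ADAMTS-like proteins on the array, papilin (PAPLN) fell in controls (-0.79 ± 0.17, limma adjusted p = 0.00401).

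Of 18 other inhibitors and cofactors, 4 rose in controls: A2M, a general protease trap (0.80), SPOCK2 (0.91), the cathepsin inhibitor CST6 (1.42) and the cell surface docking protein CD44 (1.21). In BPA-exposed animals A2M, SPOCK2 and CD44 rose by 1.17, 1.05 and 1.23, and PCOLCE, an enhancer of procollagen processing, changed by -0.79. Of 17 other matrix enzymes, 6 rose and 2 fell in controls. HTRA1, a secreted serine protease, rose by 0.94 ± 0.11 (limma adjusted p = 4.09e-05), and the lysosomal cathepsins CTSB, CTSD and CTSS rose by 0.50, 0.47 and 1.04. The tolloid proteases went apart, TLL1 by 1.36 and TLL2 by -2.09, and the heparan sulfatase SULF1 changed by -0.82.

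Of 15 matrix substrates, 2 rose and 2 fell in controls, and 1 rose and 2 fell in BPA-exposed animals. Versican (VCAN), a substrate of ADAMTS4 and ADAMTS9, changed by -0.96 ± 0.11 in controls (limma adjusted p = 4.24e-05). In BPA-exposed animals versican changed by -1.16 ± 0.12 (limma adjusted p = 5.64e-05) and brevican (BCAN) by -2.42 ± 0.37 (limma adjusted p = 0.000516). Fibronectin (FN1) fell in controls (-0.51) but did not pass in BPA-exposed animals (-0.27, limma adjusted p = 0.148). Von Willebrand factor (VWF), the substrate of ADAMTS13, rose by 1.30 in controls and by 1.37 in BPA-exposed animals. ADAMTS13 itself differed by -0.53 ± 0.17 in controls and did not pass (limma adjusted p = 0.0359). Its second probe differed by 0.05 ± 0.17 there, and the first differed by -0.12 in BPA-exposed animals. Of 19 transcriptional and cytokine regulators of MMP genes, 6 rose in controls and none fell, among them TNF (1.82), IL6 (1.78), FOSB (0.82) and the estrogen receptor ESR1 (0.73). In BPA-exposed animals 6 rose as well, among them TNF (1.76), IL1B (1.51), JUN (1.30) and ESR1 (0.95).

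Several MMPs varied widely between animals of the same group. MMP10 (stromelysin-2) and MMP1 (interstitial collagenase, which opens fibrillar collagen) were the clearest case. MMP10 was well above background on 9 of the 17 arrays, where it stood between 6.28 and 10.25, and not on the other 8, where it stood between 1.56 and 3.20. The arrays with high MMP10 were 2 GD100 controls, 2 GD100 BPA animals, 3 GD165 controls and 2 GD165 BPA animals, so both kinds occurred in every group.

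By animal, MMP10 stood at 1.60, 8.28, 2.43, 6.28 and 3.20 in GD100 control replicates 1 to 5, and MMP1 at 5.05, 9.37, 4.06, 7.61 and 5.39 in the same uteri. In GD100 BPA replicates 1 to 5, MMP10 stood at 2.48, 7.42, 2.11, 7.04 and 1.56 and MMP1 at 5.92, 7.61, 4.42, 8.06 and 4.37. In GD165 control replicates 1, 3, 5 and 6, MMP10 stood at 10.25, 10.10, 8.72 and 1.83 and MMP1 at 9.68, 9.95, 9.28 and 4.94. In each group the animals high in one gene were the animals high in the other.

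The GD165 BPA uteri showed the same split, with MMP10 at 1.78, 9.25 and 9.36 and MMP1 at 4.18, 9.86 and 9.78 in replicates 3, 4 and 5. Over all 17 arrays, the 9 highest in MMP10 were the 9 highest in MMP1. A gap of 3.07 on the log2 scale separated them from the rest in MMP10 and a gap of 1.69 in MMP1. Arrays of both kinds lay on 5 of the 6 slides.

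Neither gene passed a comparison between the 4 groups without a block, and the intervals were wide. The difference between GD165 and GD100 in controls was 3.37 for MMP10 (95% confidence interval -1.15 to 7.88) and 2.17 for MMP1 (-0.89 to 5.22). With the replicate number as a block the MMP10 difference was 7.28 and passed (limma adjusted p = 0.00616), although these numbers do not pair the animals. Some slides held both ages of the same exposure, with 1 animal of each. There MMP10 was higher at GD165 by 7.67 and 7.04 in controls and by 7.81 in BPA-exposed animals, and MMP1 by 5.88, 4.29 and 5.41. Each of these pairs set a GD100 animal low in MMP10 against a GD165 animal high in it. Age and the split between animals therefore cannot be told apart in them. Between BPA and control on the same slide, MMP10 differed by -1.83, -6.73 and 0.06 at GD100 and by -4.73 at GD165. In the rhesus annotation T2T-MMU8v2.0, 9 member genes stood next to each other on one chromosome, in the order MMP7, MMP20, MMP27, MMP8, MMP10, MMP1, MMP3, MMP12 and MMP13, so MMP10 and MMP1 are direct neighbours. The other 7 genes of the row overlapped between arrays with high and low MMP10. MMP3, on the other side of MMP1, ran from 3.48 to 8.92 on the arrays with high MMP10 and from 2.63 to 8.45 on the others. MMP8, MMP12, MMP20 and MMP27 stayed at or below 4.30 on all arrays.

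**Figure D3:**
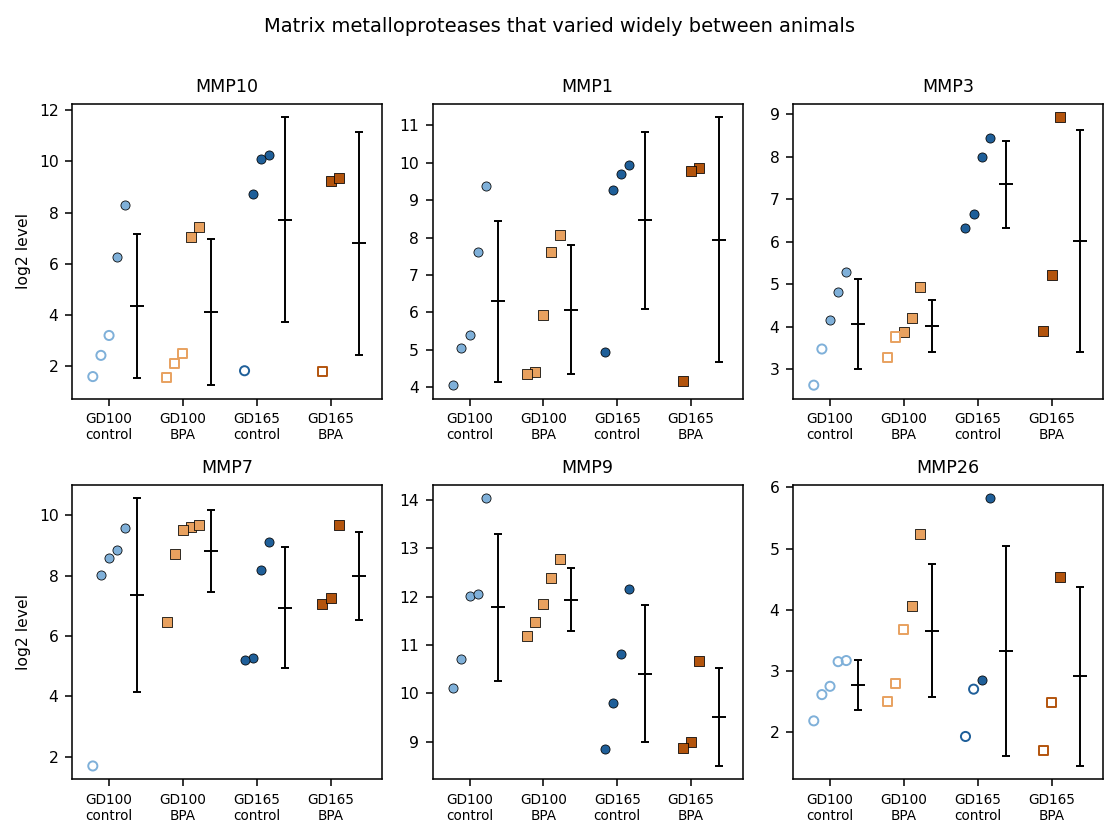
Levels of 6 matrix metalloproteases that varied widely between animals of a group. Each point is 1 animal (log2 level on the vertical axis), open points were not well above background, and the bar beside each group is the mean ± SD; MMP10 lay either at 3.20 or lower or at 6.28 or higher, and both kinds of animal occurred in all 4 groups.

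MMP3, or stromelysin-1, an activator of other MMP precursors, stood at 5.28, 4.16, 4.82, 3.48 and 2.63 in GD100 control replicates 1 to 5 and at 7.98, 6.65, 6.32 and 8.45 in the GD165 controls. These groups did not overlap, and the log2 difference was 3.28 ± 0.82 (limma adjusted p = 0.0104), just outside the threshold. It passed in 8 of 32 alternative settings of the limma fit, among them without the 3 marker-high arrays (3.24, adjusted p = 0.00836). Another was the threshold of 0.05, which an adjusted p of 0.0104 was bound to pass. It also passed without GD165 BPA replicate 3 or 5, where the control difference stayed at 3.28 and only its SE fell, to 0.72 and 0.57. These passes add nothing about the control animals, and replicate 5 is also one of the marker-high arrays. In BPA-exposed animals MMP3 held 3.76, 4.93, 4.21, 3.87 and 3.29 and then 3.91, 5.21 and 8.92, and the ages overlapped.

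MMP7, or matrilysin, an enzyme of glandular epithelium, stood at 8.03, 8.87, 1.69, 8.60 and 9.58 in GD100 control replicates 1 to 5. Replicate 3 was the only one of the 17 arrays on which it was not well above background. The GD165 controls held 8.19, 9.11, 5.26 and 5.20, the GD100 BPA uteri 6.47, 8.71, 9.63, 9.69 and 9.5 and the GD165 BPA uteri 7.06, 9.66 and 7.25. The 2 lowest GD165 controls were replicates 5 and 6, the arrays high in skeletal muscle and squamous markers. In controls MMP7 differed by -0.41 between ages, and by 1.30 without the 3 marker-high arrays. Neither passed (limma adjusted p = 0.882 and 0.723). The part of these markers in MMP7 was not tested.

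MMP9, or gelatinase B, which neutrophils and macrophages release, stood at 14.03, 10.10, 10.70, 12.01 and 12.04 in GD100 control replicates 1 to 5. In the GD165 controls it stood at 10.82, 12.16, 9.80 and 8.86. In controls MMP9 differed by -1.37 between ages, and by -0.29 without the 3 marker-high arrays. Neither passed (limma adjusted p = 0.228 and 0.885). In BPA-exposed animals it held 11.18, 11.48, 11.85, 12.38 and 12.78 at GD100 and 8.87, 8.98 and 10.68 at GD165, without overlap. The difference there was -2.42 ± 0.82 and did not pass (limma adjusted p = 0.0478), nor did the value of -3.01 without the 3 marker-high arrays (limma adjusted p = 0.0286). In the same animals the mean level of 21 leukocyte markers, around its average, lay between -0.55 and 0.22 at GD100 and between -0.20 and 0.65 at GD165, and the ages overlapped. Of these markers LYZ and CD74 rose. Of the 21 markers 16 differed upward and 5 downward, with a median of 0.44. Among the downward ones were MPO, S100A8 and S100A9, which neutrophils express, at -1.08, -0.76 and -0.66. None of these passed (limma adjusted p = 0.185, 0.617 and 0.461). ELANE, the neutrophil elastase, taken from another list, differed by 1.77 and did not pass (limma adjusted p = 0.0325). The part of leukocytes in MMP9 was not tested. MMP26, known from the endometrium, was well above background on 5 arrays. It stood at 2.18, 2.61, 2.75, 3.15 and 3.17 in the GD100 controls, none of them well above background, at 1.93, 2.70, 2.85 and 5.82 in the GD165 controls, at 2.50, 2.79, 3.67, 4.07 and 5.24 in the GD100 BPA uteri and at 1.71, 2.48 and 4.54 in the GD165 BPA uteri. In controls MMP26 differed by 0.55 between ages, and by -0.46 without the 3 marker-high arrays. Neither passed (limma adjusted p = 0.671 and 0.711). The comparison of BPA with control at GD100 did not pass (limma adjusted p = 0.9999).

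BPA was compared with vehicle at each age to see whether exposure altered the families. No member passed at GD100 or at GD165, beside 0% of all probes in both comparisons. The study, with its error-weighted analysis of variance, reported minimal differences at GD100 and significant ones at GD165, several also measured by RT-PCR. That analysis was not run here, so the 0% belongs to the limma fit. At an unadjusted limma p of 0.05, 1 of the 45 members and 3.79% of all probes passed at GD100, and 6 members and 8.61% of all probes at GD165. The groups overlapped for all 45 members at GD100, beside 0.782% of probes without overlap, and for 43 of 45 at GD165, where ADAMTS15 and ADAMTS17 did not overlap, beside 7.31% of probes.

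At GD100 the 3 members with the smallest unadjusted p were MMP24, MMP16 and ADAMTS17. MMP24, a membrane-anchored enzyme, held 3.95, 4.12, 4.39, 4.53 and 4.99 in controls and 4.68, 4.73, 4.86, 4.95 and 4.98 in BPA-exposed uteri, a difference of 0.44 (95% confidence interval 0.06 to 0.83, limma adjusted p = 0.9999). MMP16 differed by -0.26 (-0.53 to 0.01) and ADAMTS17 by 0.19 (-0.01 to 0.39).

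At GD165 the smallest unadjusted p-values belonged to ADAMTS15, ADAMTS17 and ADAMTS18. ADAMTS15, which cuts aggrecan and versican, held 5.35, 5.46, 5.6 and 5.97 in controls and 4.92, 5.15 and 5.25 in BPA-exposed uteri, a difference of -0.50 (-0.83 to -0.16, limma adjusted p = 0.451). At GD100 it held 5.01, 5.21, 5.23, 5.45 and 5.50 in controls and 5.25, 5.37, 5.56, 5.58 and 5.69 with BPA. ADAMTS17 differed by -0.35 (-0.59 to -0.11, limma adjusted p = 0.454), its 3 BPA values all lying below the lowest control.

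ADAMTS18 held 4.64, 4.72, 5.06 and 5.17 in GD165 controls and 3.83, 3.96 and 4.78 with BPA, a difference of -0.70 (-1.23 to -0.18, limma adjusted p = 0.475). At GD100 it held 4.27, 4.39, 4.41, 4.83 and 5.28 in controls and 4.53, 4.54, 4.64, 4.65 and 4.74 with BPA. A brighter probe described as ADAMTS18 by its full name, well above background on all 17 arrays, differed by -0.21 at GD165 (limma adjusted p = 0.841). MMP24 held 4.50, 4.70, 4.82 and 5.28 in GD165 controls and 4.21, 4.30 and 4.61 with BPA. Whether the BPA effect differed between GD165 and GD100 was tested directly, and no member and no other probe passed. At an unadjusted limma p of 0.05, 5 members and 7.83% of all probes passed. The difference was -0.54 ± 0.15 for ADAMTS17, -0.71 ± 0.20 for ADAMTS15 and -0.90 ± 0.28 for MMP24, each with a limma adjusted p of at least 0.5.

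The width of the BPA intervals varied among the members that changed with age. TIMP3 differed by -0.07 at GD100 (-0.27 to 0.13) and by 0.00 at GD165 (-0.24 to 0.24). The intervals of MMP11 (0.46, -0.14 to 1.07, and 0.31, -0.42 to 1.04) and MMP19 (0.00, -0.60 to 0.61, and 0.48, -0.25 to 1.21) were wider. Over the members well above background on all arrays, the median half-width of the interval was 0.34 at GD100 and 0.41 at GD165. For MMP10 it was 4.26 and 5.14, the widest of all members.

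**Figure D4:**
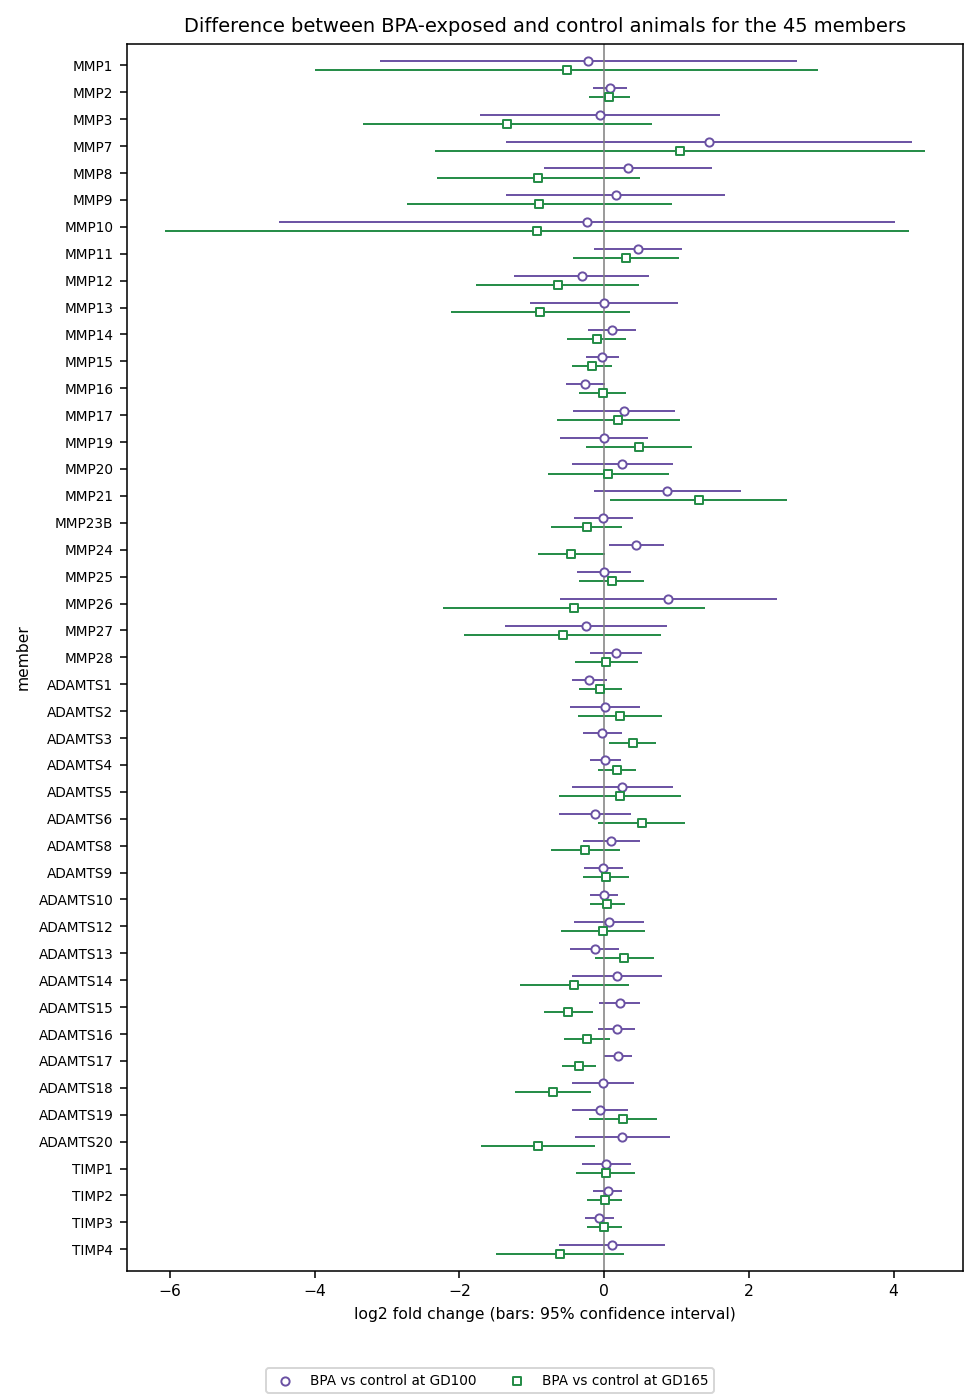
Difference between BPA-exposed and control animals for each of the 45 members at GD100 (circles) and GD165 (squares), as log2 fold change on the horizontal axis with its 95% confidence interval. No symbol is filled because no member passed an adjusted p of 0.01, and the widest intervals belong to MMP10, MMP1 and MMP7.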

How the data were processed

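Total RNA from 17 fetal uteri was labelled with Cy3 and hybridised by the authors to Agilent rhesus macaque arrays, 1 animal per array, on 6 slides. The deposited scanner files hold background-subtracted spot intensity values from Agilent Feature Extraction 9.5, with 2 spots per probe. The authors' deposited value table held the same 711467 intensity values, with no scaling between arrays. Here spots marked as outliers were left out, spots were averaged, and log2 intensity minus each array's 75th percentile was taken, with the mean percentile (12.62) added back. limma 3.58.1 (lmFit and eBayes, R 4.3.3) was fitted to all 20217 probes and 4 groups, two-sided, with Benjamini-Hochberg adjustment over all probes and the study's threshold of 0.01. The study's error-weighted analysis of variance was not run here. The number of arrays limits precision, and the script was tested on simulated data. A probe counted as well above background where at least 1 of its spots was flagged so. In all, 18780 probes (92.9%) had a gene symbol in the scanner files, and no coordinates were used because their build was unclear. Arrays were grouped by the age and treatment in their labels. A p-value compares animals.

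The 45 members and the gene lists were chosen with earlier results of these data known. Values on every array are given for members past the threshold (up to 6 rises and 6 falls per comparison), the 4 TIMPs, MMP2, MMP7, MMP9, MMP11, MMP14, MMP26, ADAMTS1 and the 3 members with the smallest unadjusted p in each BPA comparison. MMP1, MMP3, MMP10, ADAMTS5 and ADAMTS7 were named after their values were seen. Lists were fixed for plasminogen activation, ADAMs, ADAMTS-like proteins, other inhibitors, other matrix enzymes, substrates, regulators and 8 cell types. Erythroid markers gave 1 rise in controls, HBB. Alternatives covered background correction, scaling, a filter on dim probes, weights, slide and replicate blocks, probes per gene, the threshold and leaving out arrays.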

Additional observations from a re-analysis of the deposited data

Results flagged for a closer look

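Among 24 members with values given for every array, 72 groups of 4 or 5 animals were tested for an animal far from the others, and 2 were flagged, where chance alone flags about 1 in 20 groups. MMP7 in GD100 control replicate 3 stood at 1.69, and the next lowest control at 8.03. This gap was 0.803 of the group's whole range, above the critical value of 0.71. MMP1 in GD165 control replicate 6 stood at 4.94, below the next lowest control at 9.28. This gap was 0.867 of the range, above the critical value of 0.829. That array was also the one high in squamous epithelium markers, and its part in the value was not tested. No BPA effect of a member differed between GD100 and GD165 past an adjusted p of 0.01.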

How the results depend on the processing

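No called value changed sign under any alternative. Of the 480 values of called members that the alternatives gave, 38 lost the call, and of the others 29 gained one. In controls the count of 7 members ranged from 7 to 8 without 1 array and was 14 at a threshold of 0.05. In BPA-exposed animals the count of 8 ranged from 5 to 9 without 1 array, falling to 5 without GD165 BPA replicate 4 or 5. It was 5 with only the compared groups fitted, 3 with slide as a fixed block, 13 at 0.05 and 5 without the 3 arrays high in skeletal muscle or squamous markers, a setting chosen after seeing the data. With slide as a fixed block ADAMTS9, ADAMTS17, ADAMTS19, MMP16 and MMP19 missed the threshold in BPA-exposed animals and ADAMTS9 in controls. The same count over all probes, 2328 in controls and 1956 in BPA-exposed animals, was 1531 in controls without scaling, 1172 and 1176 with only the compared groups, 1233 and 512 with slide as a fixed block, 4279 and 4255 at 0.05, 1154 in controls without the 3 arrays, 1512 in controls without GD165 control replicate 6, and 994 and 1181 in BPA-exposed animals without GD165 BPA replicate 4 or 5. The cause was not tested. MMP15, just outside the threshold in BPA-exposed animals, passed in 11 of 32 alternatives. These include the threshold of 0.05, which its adjusted p of 0.01005 was bound to pass. No member was called for BPA, or for the difference of the BPA effects, under any alternative.

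The median over the 45 members was less steady. In controls it was 0.23 and became 0.12 with normexp background correction, 0.13 with quantile normalization and 0.14 without the 3 marker-high arrays. In BPA-exposed animals it was -0.08 and became 0.10 without scaling, -0.17 with weights and 0.050 with slide as a fixed block, and ranged from -0.17 to -0.032 without 1 array. For BPA at GD165 it was -0.02 and became -0.10 with normexp, 0.14 without scaling and -0.16 without the 3 arrays, and ranged from -0.14 to 0.00027 without 1 array. For the difference of the BPA effects it was -0.16 and became 0.044 without scaling, and ranged from -0.20 to -0.0012 without 1 array. Leaving out scaling moved the median of all probes to 0.13 in BPA-exposed animals and 0.14 for BPA at GD165.

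Replicate numbers do not pair the animals: deviations of same-numbered animals correlated at -0.17 to 0.16 over 19 pairs. With the replicate block 5 members were called in controls, where MMP15 (0.66, limma adjusted p = 0.0175), TIMP3 (0.61, 0.0114) and ADAMTS9 (-0.70, 0.0188) missed the threshold and MMP10 passed (7.28, 0.00616). In BPA-exposed animals 7 were called, and the median for the difference of the BPA effects was -0.00032. No count over all probes is given for the replicate block, so these counts are not read as a result about the members.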
